A study of Bos taurus with 12 samples.

Results

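The 40 mitosis genes described here are a list of gene symbols that covers entry into mitosis, the spindle, chromosome condensation, chromosome separation and cell division. The rule is the list of names itself, with no measured value in it, but the list was chosen with earlier results of these data known. All 40 were found among the 30336 genes of the count files, of which 21227 had a read. Cyclin-dependent kinase 1 with its B-type cyclins starts mitosis, the Aurora and Polo-like kinases build the spindle, condensin compacts the chromosomes, and the anaphase-promoting complex (APC/C) then marks cyclin B and securin for destruction so that the chromatids separate. Most of these transcripts are made mainly in dividing cells, so that their level in a tissue is widely read as a sign of proliferation. The liver of a newborn still grows and holds some dividing cells, while hepatocytes of the adult divide rarely.

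Liver RNA came from puncture biopsies of Holstein heifer calves at 4 d of age, 12 by the labels. The calves of the control group (CON, 6 libraries) were born to cows fed a basal diet without added methionine, with 15.3% crude protein and an energy density of 1.47 Mcal/kg dry matter, during the last 28 d of gestation, and those of the methionine group (MET, 6 libraries) to cows fed the same diet plus rumen-protected methionine coated with ethyl cellulose. The comparison asks how the mother's methionine supply in late gestation is related to the calf's liver transcriptome. All libraries shared 1 lane, but each diet had its own first index, and effects of the index cannot be told apart from those of diet.

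A library held 8277789 to 10397604 counted reads, and the mitosis genes took 18419 reads over the 12 libraries, or 0.0163% of all. Counts of CON replicate 1 against CON replicate 4 gave a chi-square per gene of 1.31, and those of MET replicate 1 against MET replicate 3 gave 1.23, near what counting noise alone gives, while the 64 other library pairs had 23.3 to 122. Whether the libraries of a pair come from 1 calf or 2 cannot be told from the counts and labels. Both pairs were treated as single samples, which left 5 samples per diet, and the tests of the genes described in full are given over the 12 libraries and over these 10 samples. Values per sample are CPM, reads scaled to a common library total after TMM normalization. They follow the order CON 1+4, 2, 3, 5 and 6, then MET 1+3, 2, 4, 5 and 6. For a library pair the mean CPM and the sum of the reads are given.

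The tissue carried its hepatocyte markers. Albumin was the most abundant of 9 such genes by its mean in CON, at 62223 ± 13404 CPM in CON and 39451 ± 8761 CPM in MET (SD, n = 5 samples each), and its values overlapped between the diets (log2 fold change −0.65, edgeR FDR = 0.107 over 12 libraries). Transferrin, TF, was the most abundant of the 9 by its mean in MET, at 51602 ± 8328 CPM in CON and 41171 ± 6307 CPM in MET (SD, n = 5 samples each).

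Mitosis genes were mostly lower in MET, and 5 of the 33 that passed the expression filter were called, namely CDK1, CCNB1, SMC2, SMC4 and ECT2 (edgeR FDR at most 0.10, over 12 libraries). The background for a lower call was 2.32% of 13212 genes. As the list was chosen with earlier results of these data known, the shares here and below describe it and do not test it. At unadjusted p at most 0.05, 20 of the 33 were lower, against a background of 10.4%. Here edgeR stands for its quasi-likelihood test. Over the same 12 libraries the likelihood-ratio test of edgeR called 15 of the 33 lower, against a background of 3.72%, and DESeq2 called 16 of the 32 with an adjusted p lower, against a background of 5.36%, and both sets hold the 5 with CCNA2, CCNB2, MAD2L1, CDC20, KIF11, KIF20A, CENPA, CENPF, PRC1 and BIRC5. For higher calls the background was 2.09%, and no mitosis gene was called higher (edgeR, with 0 mitosis genes higher at unadjusted p at most 0.05, against a background of 10.2%, and 0 called higher by DESeq2 over 10 samples, against a background of 2.74%). The calls by edgeR were lost when each library pair was counted once. With 10 samples, edgeR called 0 mitosis genes lower, against a background of 0%, while 21 of 33 were lower at unadjusted p at most 0.05, against a background of 8.52%, and DESeq2 called 9 of the 16 for which it gave an adjusted p, against a background of 2.98%. These 9 were CDK1, SMC2 and SMC4, which edgeR had called over 12 libraries, and BUB1, KIF20A, CENPF, TOP2A, MKI67 and BIRC5, while CCNB1 and ECT2 had no adjusted p there.

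A filter blind to diet, a mean of at least 5 reads, kept 37 of the 40 mitosis genes and left out TTK, PTTG1 and ANLN. Of these 37, 36 had a log2 fold change below 0, against 50.2% of the 14409 genes past this filter, and the exception was CDC25C. Over the 10 samples PLK1 and KIF23 were also above 0. The median log2 fold change of the 37 over 12 libraries was −0.92, and that of all genes past this filter was −0.0015. At unadjusted p at most 0.05, 23 of the 37 were lower, against a background of 9.76%, and 7 were called at FDR at most 0.10, against a background of 2.03%. Over the 10 samples 24 were lower at unadjusted p at most 0.05, against 7.85% of genes. All MET samples lay below all CON samples in 5 of the 37 (CDK1, MAD2L1, KIF2C, SMC2 and SMC4), against 1.75% of genes. For KIF2C the nearest samples of the diets were less than a read apart. In bulk liver, fewer cells of a type and less RNA per cell cannot be told apart.

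Summed over the 40 genes, the level was 148, 273, 334, 141 and 179 CPM in the CON samples and 149, 111, 100.4, 136 and 124 CPM in the MET samples. CON 3 and CON 2 stood well above all other samples, and CON 1+4, CON 5 and MET 1+3 were nearly level, so the diets overlapped. The mean was 215 ± 84.9 CPM in CON and 124 ± 19.2 CPM in MET (SD, n = 5 samples each), a ratio of MET over CON of 0.578. The CON samples thus spread far more than the MET samples. CON 3 was the highest of the 10 samples in 31 of the 40 genes and CON 2 in 6. Among the 37 with a mean of at least 5 reads, CON 3 was highest in 29, against 13.7% of all genes past that filter.

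The 40 genes lie on 20 chromosomes of the assembly UMD 3.1.1 and have a median exon length of 3364 bases, against 2807 for all genes past the filter. Per length, PLK1, KIF23, UBE2C and NCAPD2 were the most abundant at 4.57, 4.21, 3.71 and 3.47 CPM per kb over the 10 samples, and TTK and PTTG1 the least at 0.0339 and 0.0650 CPM per kb. TTK was counted over 1427 bases of exon, and PTTG1 over 635 bases without an intron (chromosome 19, 39964933 to 39965567). Whether these 2 gene models cover the whole genes was not tested. Of the 4 most abundant per length, 3 (PLK1, KIF23 and NCAPD2) had log2 fold changes between −0.29 and −0.02 over 12 libraries, far from the median of the list.

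**Figure D1:**
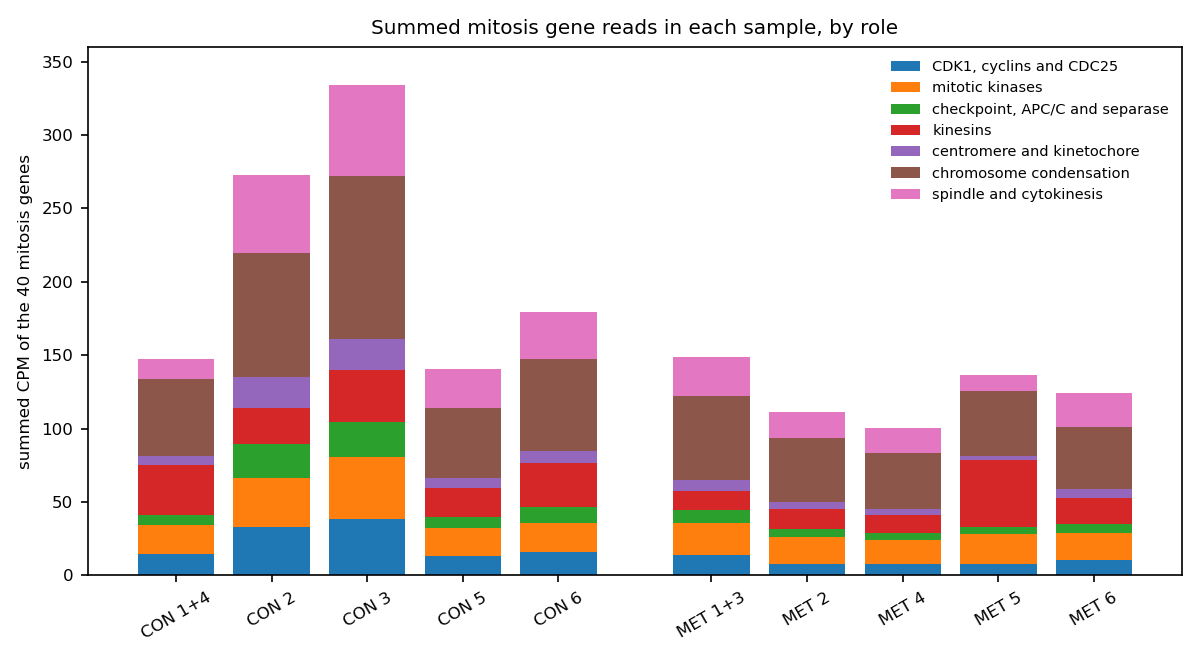
Summed level of the 40 mitosis genes (vertical axis, CPM) in each of the 10 samples, with bars stacked by role. CON 3 and CON 2 reach 334 and 273 CPM, the other CON samples 141 to 179 CPM, and the MET samples 100.4 to 149 CPM.

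The kinase that starts mitosis and its cyclins held 2 of the 5 calls, and over 10 samples DESeq2 called CDK1, 1 of 2 genes of this group with an adjusted p. CDK1 (gene ID 281061, chromosome 28, 16620119 to 16670633) was at 3.48, 13.2, 16.6, 4.27 and 5.08 CPM in the CON samples (62, 105, 145, 41 and 49 reads) and at 3.32, 1.85, 1.73, 1.45 and 2.68 CPM in the MET samples (71, 19, 15, 13 and 26 reads). CON 2 and CON 3 were far above the rest, and the lowest CON sample lay just above the highest MET sample, so the diets did not overlap. CDK1 averaged 8.52 ± 5.96 CPM in CON and 2.21 ± 0.773 CPM in MET (SD, n = 5 samples each), with log2 fold change −1.66 ± 0.43 (SE) over the 12 libraries with edgeR FDR = 0.0766, and −1.89 ± 0.46 over the 10 samples with edgeR FDR = 0.174. The exact two-sided permutation p was 0.00794, the smallest that 252 arrangements of 10 samples allow.

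Cyclin B1, the partner that activates CDK1, behaved alike. CCNB1 (gene ID 327679, chromosome 20, 10431452 to 10441126) was at 1.28, 4.78, 6.06, 1.88 and 2.70 CPM in the CON samples (23, 38, 53, 18 and 26 reads) and at 1.36, 0.586, 0.460, 0.448 and 0.618 CPM in the MET samples (29, 6, 4, 4 and 6 reads). MET 1+3 was slightly above CON 1+4, the lowest CON sample, and the other MET samples were below every CON sample. The averages were 3.34 ± 2.02 CPM in CON and 0.694 ± 0.378 CPM in MET (SD, n = 5 samples each), with log2 fold change −1.85 ± 0.47 (SE) over the 12 libraries with edgeR FDR = 0.0719, and −2.11 ± 0.48 over the 10 samples with edgeR FDR = 0.172 and an exact permutation p = 0.0159.

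The second B-type cyclin, which associates with the Golgi, was close to the threshold without passing it in the main fit, and it was called over 12 libraries with upper quartile factors (edgeR FDR = 0.0996), by the likelihood-ratio test (0.0513) and by DESeq2 (0.0467). CCNB2 (gene ID 281668, chromosome 10, 51247755 to 51272760) was at 1.12, 3.39, 3.77, 1.98 and 3.01 CPM in the CON samples (20, 27, 33, 19 and 29 reads) and at 1.41, 1.17, 0.806, 0.559 and 1.03 CPM in the MET samples (30, 12, 7, 5 and 10 reads). The diets overlapped through CON 1+4, which was below MET 1+3 and MET 2. CCNB2 averaged 2.66 ± 1.09 CPM in CON and 0.995 ± 0.327 CPM in MET (SD, n = 5 samples each), with log2 fold change −1.15 ± 0.35 (SE) over the 12 libraries with edgeR FDR = 0.106, and −1.33 ± 0.37 over the 10 samples with edgeR FDR = 0.175 and an exact permutation p = 0.0238. Cyclin A2, which acts in S phase and early mitosis, had a log2 fold change of −1.37 (edgeR FDR = 0.106). The CDC25 phosphatases remove the inhibitory phosphates from CDK1. Of the 2 among the 40 genes, CDC25B was at −0.16 (edgeR FDR = 0.726). CDC25C, below the filter with 76 reads over the 12 libraries, was at 0.18 in a fit with a lower filter (CPM over 0.5 in 2 or more libraries, edgeR FDR = 0.805). CDC25A, which is not among the 40, was at −0.39 over the 12 libraries (edgeR FDR = 0.356) and at −0.48 over the 10 samples (0.302).

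Among the mitotic kinases edgeR called no gene (0 of 5 past the filter, 1 lower at unadjusted p at most 0.05, and BUB1 called by DESeq2 over 12 libraries and over 10 samples, where 2 had an adjusted p). Polo-like kinase 1, which acts at centrosomes, kinetochores and the midbody, had the highest level per length of all 40 genes, at 4.57 CPM per kb over the 10 samples. PLK1 (gene ID 538238, chromosome 25, 21587069 to 21597613) was at 10.0, 11.3, 12.6, 8.76 and 6.64 CPM in the CON samples (180, 90, 110, 84 and 64 reads) and at 8.72, 9.96, 9.32, 12.4 and 9.38 CPM in the MET samples (186, 102, 81, 111 and 91 reads). The diets overlapped completely, with the highest values in CON 3 and MET 5 and the lowest in CON 6. PLK1 averaged 9.87 ± 2.30 CPM in CON and 9.96 ± 1.44 CPM in MET (SD, n = 5 samples each), with log2 fold change −0.02 ± 0.16 (SE) over the 12 libraries with edgeR FDR = 0.961, and 0.01 ± 0.18 over the 10 samples with edgeR FDR = 0.985, and the exact permutation p was 0.841.

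Aurora A, the kinase of the spindle poles, was high in 1 sample. AURKA (gene ID 504437, chromosome 13, 60091526 to 60107188) was at 2.46, 3.65, 6.75, 1.98 and 2.70 CPM in the CON samples (44, 29, 59, 19 and 26 reads) and at 3.88, 1.66, 2.88, 2.69 and 1.96 CPM in the MET samples (83, 17, 25, 24 and 19 reads). CON 3 stood apart, and the other CON samples lay within the range of MET. Its averages were 3.51 ± 1.91 CPM in CON and 2.61 ± 0.870 CPM in MET (SD, n = 5 samples each), with log2 fold change −0.23 ± 0.32 (SE) over the 12 libraries with edgeR FDR = 0.722, and −0.39 ± 0.35 over the 10 samples with edgeR FDR = 0.616 and an exact permutation p = 0.405. Without CON replicate 3 the log2 fold change was 0.10.

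Aurora B, the kinase of the chromosomal passenger complex, had −0.31 (edgeR FDR = 0.547), and the checkpoint kinases BUB1 and BUB1B had −0.93 (0.151) and −0.99 (0.247). PBK, a kinase active in mitosis, was below the filter with 152 reads, and in the fit with the lower filter its log2 fold change was −1.61 (edgeR FDR = 0.102), while among genes with a mean of at least 5 reads it was called (edgeR FDR = 0.0951). TTK, the kinase that starts the spindle checkpoint, had 5 reads over the 12 libraries in its gene model, too few for a difference to be detectable.

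In the group of the checkpoint, the APC/C and separase, 0 of the 4 genes past the filter were called by edgeR, and all 4 were lower at unadjusted p at most 0.05. Over 10 samples DESeq2 gave an adjusted p to UBE2C alone of these 4 and did not call it. Over 12 libraries DESeq2 and the likelihood-ratio test both called MAD2L1 and CDC20 (CDC20 FDR = 0.0619 and 0.0818). CDC20 activates the APC/C. CDC20 (gene ID 515376, chromosome 3, 103238482 to 103242469) was at 1.51, 7.29, 6.86, 1.77 and 3.32 CPM in the CON samples (27, 58, 60, 17 and 32 reads) and at 2.16, 1.27, 1.27, 0.783 and 1.34 CPM in the MET samples (46, 13, 11, 7 and 13 reads). CON 2 and CON 3 were high, CON 6 was between, and CON 1+4 and CON 5 were below MET 1+3. CDC20 averaged 4.15 ± 2.76 CPM in CON and 1.36 ± 0.499 CPM in MET (SD, n = 5 samples each), with log2 fold change −1.28 ± 0.45 (SE) over the 12 libraries with edgeR FDR = 0.138, and −1.52 ± 0.47 over the 10 samples with edgeR FDR = 0.185 and an exact permutation p = 0.0476.

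The ubiquitin-conjugating enzyme of the APC/C was more abundant per length than its activator, at 3.71 against 1.47 CPM per kb. UBE2C (gene ID 506962, chromosome 13, 75306721 to 75311452) was at 2.41, 10.2, 8.58, 2.61 and 3.63 CPM in the CON samples (43, 81, 75, 25 and 35 reads) and at 3.42, 1.56, 1.15, 1.23 and 4.02 CPM in the MET samples (73, 16, 10, 11 and 39 reads). Again CON 2 and CON 3 were high, and the other 3 CON samples lay within the range of MET. UBE2C averaged 5.48 ± 3.63 CPM in CON and 2.28 ± 1.34 CPM in MET (SD, n = 5 samples each), with log2 fold change −0.99 ± 0.46 (SE) over the 12 libraries with edgeR FDR = 0.238, and −1.20 ± 0.49 over the 10 samples with edgeR FDR = 0.266 and an exact permutation p = 0.0794. The spindle checkpoint protein MAD2L1 had a log2 fold change of −0.88 (edgeR FDR = 0.123), and all its MET samples were below all CON samples. Separase, ESPL1, which cuts cohesin at anaphase, had −0.93 (0.209). The gene model named PTTG1, the symbol of its inhibitor securin, had 4 reads over the 12 libraries.

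The kinesins, motors that move along microtubules, differed widely among themselves. KIF2C, which depolymerises microtubules at centromeres, had few reads and was below the filter, and it was tested with the lower filter, where 6 of 38 mitosis genes were called lower against a background of 1.64% of 15527 genes. KIF2C (gene ID 533161, chromosome 3, 101832364 to 101851108) was at 0.669, 1.63, 2.97, 0.730 and 1.56 CPM in the CON samples (12, 13, 26, 7 and 15 reads) and at 0.657, 0.293, 0.115, 0.112 and 0.206 CPM in the MET samples (14, 3, 1, 1 and 2 reads). CON 3 was highest, and CON 1+4 lay above MET 1+3 by less than 1 read, so that at this depth these 2 samples were level and the other MET samples were below all CON samples. KIF2C averaged 1.51 ± 0.932 CPM in CON and 0.277 ± 0.225 CPM in MET (SD, n = 5 samples each), with log2 fold change −1.91 ± 0.53 (SE) over the 12 libraries with edgeR FDR = 0.0906, and −2.16 ± 0.57 over the 10 samples with edgeR FDR = 0.189 and an exact permutation p = 0.00794.

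KIF23, a subunit of centralspindlin at the cell's midzone, had the next highest level per length after PLK1, at 4.21 CPM per kb. KIF23 (gene ID 515748, chromosome 10, 16248973 to 16309004) was at 28.4, 9.55, 12.4, 12.9 and 15.7 CPM in the CON samples (508, 76, 108, 124 and 151 reads) and at 6.70, 10.6, 8.40, 42.5 and 13.0 CPM in the MET samples (143, 109, 73, 380 and 126 reads). MET 5 and CON 1+4 were far above the other samples, and MET 5 was the highest sample in no other mitosis gene. KIF23 averaged 15.8 ± 7.38 CPM in CON and 16.2 ± 14.9 CPM in MET (SD, n = 5 samples each), with log2 fold change −0.29 ± 0.45 (SE) over the 12 libraries with edgeR FDR = 0.751, and 0.01 ± 0.48 over the 10 samples with edgeR FDR = 0.995 and an exact permutation p = 0.706. Its log2 fold change over 12 libraries was −0.98 without MET replicate 5.

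PAQR5, a membrane progestin receptor gene looked at after the values of KIF23 were seen, lies on the same strand 64 bases before KIF23 (chromosome 10, 16151840 to 16248908). It was at 9.29, 2.14, 3.43, 7.30 and 3.74 CPM in the CON samples (166, 17, 30, 70 and 36 reads) and at 2.86, 3.12, 2.65, 12.1 and 2.58 CPM in the MET samples (61, 32, 23, 108 and 25 reads). MET 5 and CON 1+4 were its highest samples too, followed by CON 5. The part of PAQR5 transcripts in the reads counted for KIF23 was not tested.

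Of the other kinesins, KIF20A, which acts in cytokinesis, had a log2 fold change of −1.61 (edgeR FDR = 0.112) and was called by DESeq2 over 10 samples, 1 of 2 kinesins with an adjusted p there, and KIF11, which pushes the spindle poles apart, had −1.22 (0.127). KIF15 had −0.54 (0.314), and KIF18A, with 98 reads and below the filter, had −1.49 in the fit with the lower filter (edgeR FDR = 0.109).

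All 3 centromere and kinetochore genes passed the filter and none was called by edgeR, with 2 lower at unadjusted p at most 0.05 and CENPF, the only 1 of them with an adjusted p from DESeq2 over 10 samples, called there. Over 12 libraries DESeq2 and the likelihood-ratio test both called CENPA and CENPF. CENPA, the histone H3 variant of centromeres, had −1.34 (edgeR FDR = 0.140) and CENPF −1.30 (0.109), while the kinesin-like CENPE had −0.21 (0.769).

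Chromosome condensation was the group with the most reads, and 2 of its 7 genes were called, the core subunits SMC2 and SMC4 that are common to both condensins. Over 10 samples DESeq2 called 4 of the 6 with an adjusted p, SMC2, SMC4, TOP2A and MKI67. SMC2 (gene ID 539217, chromosome 8, 95364283 to 95413346) was at 5.69, 7.54, 9.95, 5.11 and 6.33 CPM in the CON samples (102, 60, 87, 49 and 61 reads) and at 4.91, 3.61, 2.76, 3.47 and 4.23 CPM in the MET samples (105, 37, 24, 31 and 41 reads). Every MET sample was below every CON sample, although MET 1+3 came close to CON 5. SMC2 averaged 6.92 ± 1.92 CPM in CON and 3.80 ± 0.810 CPM in MET (SD, n = 5 samples each), with log2 fold change −0.75 ± 0.21 (SE) over the 12 libraries with edgeR FDR = 0.0869, and −0.84 ± 0.22 over the 10 samples with edgeR FDR = 0.175 and an exact permutation p = 0.00794.

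Its partner followed the same order of the diets. SMC4 (gene ID 353350, chromosome 1, 107894732 to 107928499) was at 11.9, 16.6, 22.8, 13.2 and 16.6 CPM in the CON samples (212, 132, 199, 127 and 160 reads) and at 11.0, 10.3, 8.86, 10.9 and 10.00 CPM in the MET samples (234, 105, 77, 97 and 97 reads). The MET samples were close together and all below the CON samples, among which CON 3 was highest. SMC4 averaged 16.2 ± 4.21 CPM in CON and 10.2 ± 0.845 CPM in MET (SD, n = 5 samples each), with log2 fold change −0.58 ± 0.16 (SE) over the 12 libraries with edgeR FDR = 0.0826, and −0.66 ± 0.17 over the 10 samples with edgeR FDR = 0.175 and an exact permutation p = 0.00794.

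The non-SMC subunits of condensin I were not called. NCAPD2 (gene ID 786159, chromosome 5, 104244558 to 104272651) was at 18.4, 18.4, 18.4, 12.9 and 14.2 CPM in the CON samples (329, 146, 161, 124 and 137 reads) and at 17.3, 14.2, 15.8, 16.3 and 14.1 CPM in the MET samples (369, 145, 137, 146 and 137 reads). CON 1+4, CON 2 and CON 3 were level, CON 5 was the lowest sample of all, and the MET samples lay between. NCAPD2 averaged 16.5 ± 2.67 CPM in CON and 15.5 ± 1.39 CPM in MET (SD, n = 5 samples each), with log2 fold change −0.08 ± 0.12 (SE) over the 12 libraries with edgeR FDR = 0.734, and −0.08 ± 0.13 over the 10 samples with edgeR FDR = 0.793 and an exact permutation p = 0.579. NCAPG and NCAPH had log2 fold changes of −0.39 (0.535) and −0.32 (0.561).

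Topoisomerase II alpha untangles the replicated chromosomes. TOP2A (gene ID 787696, chromosome 19, 41281047 to 41307333) was at 4.03, 11.3, 19.2, 4.27 and 8.61 CPM in the CON samples (72, 90, 168, 41 and 83 reads) and at 5.91, 4.78, 2.76, 3.80 and 1.86 CPM in the MET samples (126, 49, 24, 34 and 18 reads). CON 3, CON 2 and CON 6 exceeded every MET sample, and CON 1+4 and CON 5 lay within the range of MET. TOP2A averaged 9.49 ± 6.24 CPM in CON and 3.82 ± 1.60 CPM in MET (SD, n = 5 samples each), with log2 fold change −1.03 ± 0.41 (SE) over the 12 libraries with edgeR FDR = 0.185, and −1.27 ± 0.44 over the 10 samples with edgeR FDR = 0.213 and an exact permutation p = 0.0635. It was called by DESeq2 over the 10 samples (FDR = 0.0742). Without CON replicate 3 the log2 fold change of TOP2A over 12 libraries was −0.62.

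Ki-67 coats mitotic chromosomes and is the usual marker of cycling cells. MKI67 (gene ID 513220, chromosome 26, 47850006 to 47880103) was at 8.58, 22.5, 28.8, 8.76 and 11.0 CPM in the CON samples (153, 179, 252, 84 and 106 reads) and at 12.7, 6.25, 4.03, 6.04 and 6.60 CPM in the MET samples (271, 64, 35, 54 and 64 reads). CON 3 and CON 2 were high, MET 1+3 was above the other 3 CON samples, and the other MET samples were below all of CON. MKI67 averaged 15.9 ± 9.21 CPM in CON and 7.12 ± 3.26 CPM in MET (SD, n = 5 samples each), with log2 fold change −0.86 ± 0.37 (SE) over the 12 libraries with edgeR FDR = 0.216, and −1.12 ± 0.39 over the 10 samples with edgeR FDR = 0.213 and an exact permutation p = 0.0556. It too was called by DESeq2 over the 10 samples (FDR = 0.0798). Without CON replicate 3 the log2 fold change of MKI67 over 12 libraries was −0.55.

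In the group of the spindle and cytokinesis, 1 of the 5 genes past the filter was called, ECT2, the exchange factor that activates RhoA at the division plane. ECT2 (gene ID 504746, chromosome 1, 95475796 to 95536137) was at 1.28, 3.90, 6.63, 1.98 and 2.91 CPM in the CON samples (23, 31, 58, 19 and 28 reads) and at 1.45, 0.586, 1.15, 0.783 and 0.825 CPM in the MET samples (31, 6, 10, 7 and 8 reads). CON 3 was highest, and MET 1+3 was the only MET sample above the lowest CON sample, CON 1+4. ECT2 averaged 3.34 ± 2.09 CPM in CON and 0.960 ± 0.343 CPM in MET (SD, n = 5 samples each), with log2 fold change −1.50 ± 0.42 (SE) over the 12 libraries with edgeR FDR = 0.0859, and −1.72 ± 0.44 over the 10 samples with edgeR FDR = 0.175 and an exact permutation p = 0.0159.

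The survivin gene BIRC5 had a log2 fold change of −1.37 (edgeR FDR = 0.140) and was called by DESeq2 over 10 samples, 1 of 2 genes of its group with an adjusted p there. The microtubule bundler PRC1 had −1.43 (0.121). NUSAP1 and TPX2, which bind spindle microtubules, had −0.68 (0.351) and −0.33 (0.632). The actin-binding protein ANLN, with 47 reads and below the filter, had −1.77 in the fit with the lower filter (edgeR FDR = 0.153), which its CON samples were enough to pass and its MET samples were not (at most 1.49 CPM in CON and 0.488 CPM in MET).

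**Figure D2:**
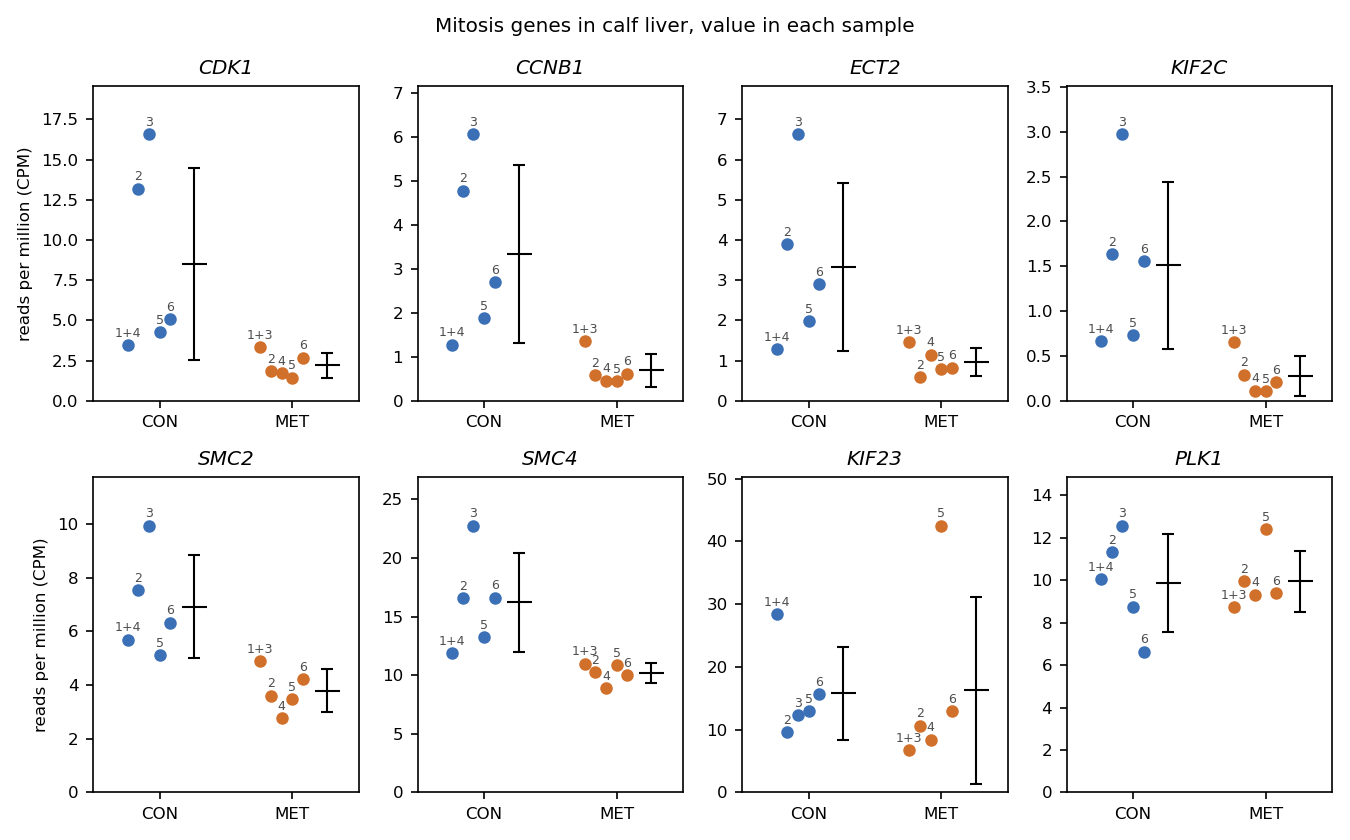
Levels (vertical axes, CPM, each from 0) of 8 mitosis genes in the 10 samples, labelled by replicate number, with the mean and SD of each diet in black. CDK1, CCNB1, ECT2, KIF2C, SMC2 and SMC4 are mostly lower in MET, KIF23 is high in MET 5 and CON 1+4, and PLK1 overlaps between the diets.

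**Figure D3:**
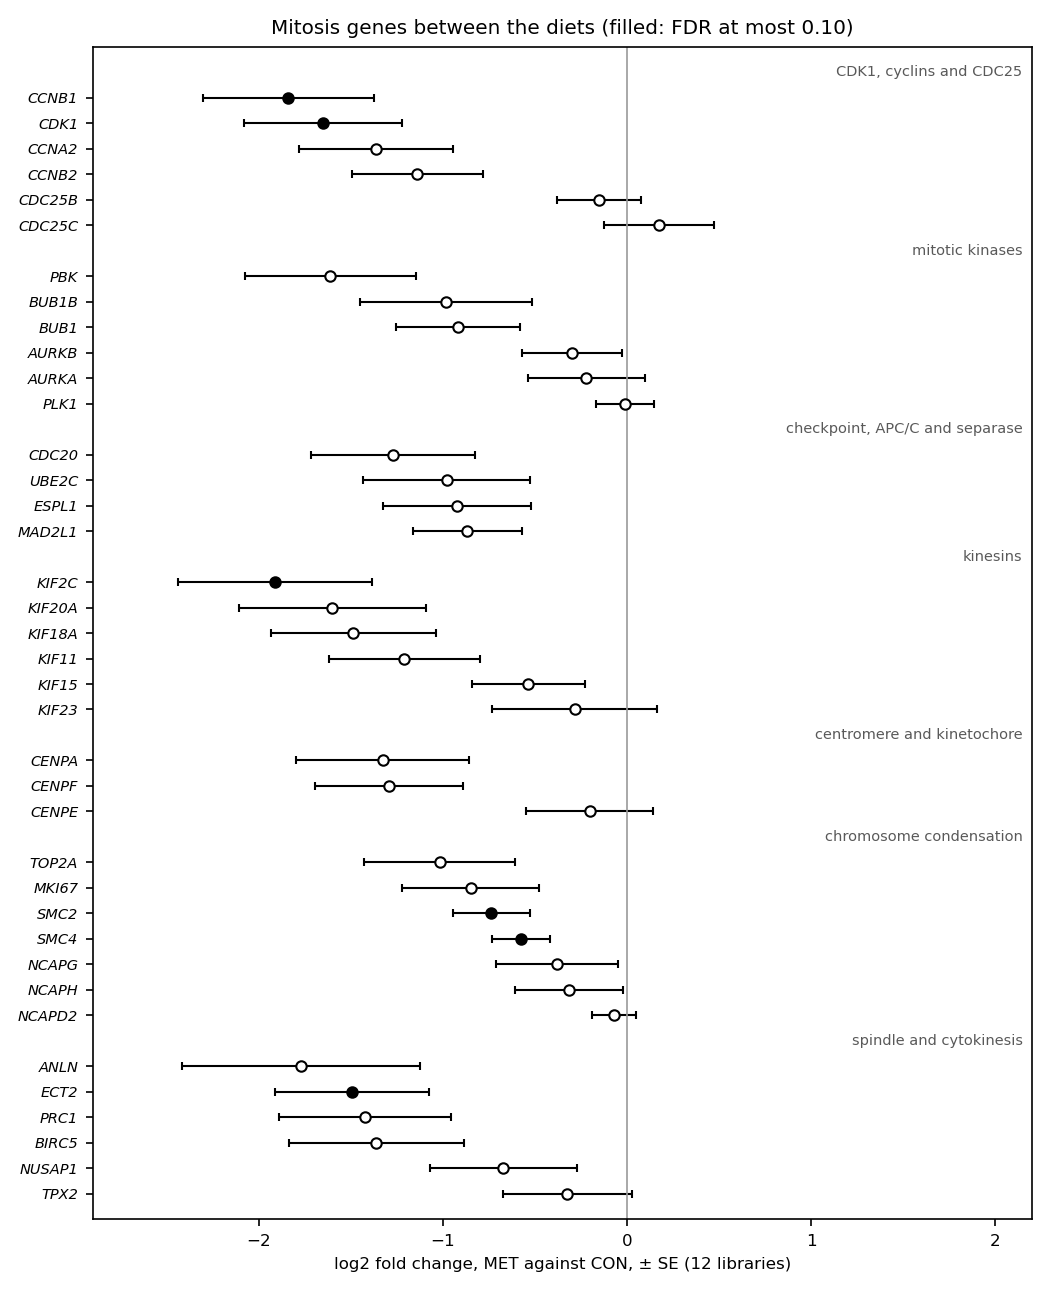
Log2 fold change of MET against CON with its SE (horizontal axis) for the 38 mitosis genes with CPM over 0.5 in 2 or more of the 12 libraries, grouped by role, with filled points for edgeR FDR at most 0.10. The 6 filled points are CCNB1, CDK1, KIF2C, SMC2, SMC4 and ECT2, and over 10 samples edgeR calls none of them, while DESeq2 calls CDK1, SMC2 and SMC4.

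The calls also depended on single libraries. Without CON replicate 1 or 4, edgeR called 0 mitosis genes, and 26 and 35 genes in all, against 583 in the main fit over 12 libraries. It also called 0 mitosis genes without CON replicate 3, with 284 genes in all. Without MET replicate 2, 4, 5 or 6 it called 0 mitosis genes too, with 349, 295, 340 and 216 genes in all. It called 1 mitosis gene, CCNB1, without CON replicate 2 or MET replicate 3 (565 and 332 genes in all). It called 2 without MET replicate 1 (206 in all), 3 without CON replicate 6 (376) and 6 without CON replicate 5 (459). The direction held more widely, with 31 to 33 of the 33 tested mitosis genes below 0 in these 12 fits. Their median log2 fold change was −0.61 without CON replicate 3, the sample with the highest values. Scaling by library size alone left 0 mitosis genes called by edgeR, with 107 genes called in all, and turned PLK1 to 0.01. Removal of a trend on gene length left 1 call, CCNB1, against a background of 0.901%. The fold changes moved little in both, with medians of −0.89 and −0.86 over the 33 genes, against −0.93 in the main fit.

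Other mitosis genes, taken from 5 lists written from general knowledge, differed in direction. Over all genes in the 12 libraries, edgeR called 2.32% lower and 2.09% higher. At unadjusted p at most 0.05 the shares were 10.4% lower and 10.2% higher. In the list of other kinetochore and checkpoint genes 17 of 26 tested genes were below 0 and 0 were called by edgeR (3 lower and 1 higher at unadjusted p at most 0.05, and 1 called, higher, by DESeq2 over 10 samples, of 17 with an adjusted p). Of 16 other APC/C genes 5 were below 0 (0 lower and 3 higher at unadjusted p at most 0.05) and 1 was called, the RING subunit ANAPC11, which was higher in MET (0.34, edgeR FDR = 0.0715), and of 13 cohesin and condensin II genes 12 were below 0 (6 lower and 0 higher at unadjusted p at most 0.05) and 1 was called, the cohesin subunit STAG2, which was lower (−0.49, 0.0715). Among 27 other spindle, centrosome and cytokinesis genes 21 were below 0 (10 lower and 1 higher at unadjusted p at most 0.05), and 2 were called. RACGAP1, the partner of KIF23 in centralspindlin, was lower (−0.93, 0.0849) and CDCA2 higher (0.37, 0.0869). Of 23 genes that control CDK1 and mitotic transcription, 15 were below 0 (4 lower and 2 higher at unadjusted p at most 0.05) and 1 was called, WEE1, the kinase that inhibits CDK1, which was lower (−0.57, 0.0582). None of these calls held over the 10 samples by edgeR. DESeq2 over 10 samples called 4 of 15 of the spindle list, 2 of 19 of the CDK1 list and 1 of 13 of the cohesin list lower, and 1 of 16 of the APC/C list higher, counted among genes with an adjusted p. Its background was 2.98% for lower calls and 2.74% for higher calls.

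Unlike KIF23, RACGAP1 nearly separated the diets. It was at 2.73, 5.53, 6.75, 3.02 and 4.36 CPM in the CON samples (49, 44, 59, 29 and 42 reads) and at 2.35, 2.15, 1.61, 2.69 and 1.96 CPM in the MET samples (50, 22, 14, 24 and 19 reads). All MET samples were below all CON samples, but MET 5 lay below CON 1+4 by less than a read, so that these samples were level at this depth. CON 3 and CON 2 were highest. WEE1 was at 10.5, 11.4, 12.01, 8.96 and 9.23 CPM in the CON samples (188, 91, 105, 86 and 89 reads) and at 7.64, 6.74, 7.48, 6.94 and 5.77 CPM in the MET samples (163, 69, 65, 62 and 56 reads). For WEE1 all MET samples were below all CON samples, CON 1+4 was not low, and the spread within CON was small. Such a lack of overlap held for 1 of the 29 listed genes of the spindle list and 1 of 26 of the CDK1 list. It held for 3 of 15 of the cohesin list, 0 of 34 of the kinetochore list and 0 of 17 of the APC/C list. Over all genes with a mean of at least 5 reads the share was 1.75%.

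For comparison, 2 of the 37 tested genes of the G1/S transition and DNA replication were called, both lower, CCNE2 (−1.44, edgeR FDR = 0.0381) and TYMS (−0.59, 0.0849), and neither was called over the 10 samples by edgeR, where DESeq2 called 4 of 29 with an adjusted p, all lower. Of the 37, 27 were below 0 (5 lower and 4 higher at unadjusted p at most 0.05, against 10.4% and 10.2% of all genes). The background for a lower call was 2.32% by edgeR over 12 libraries and 2.98% by DESeq2 over 10 samples. CCNE2, the cyclin that drives entry into S phase, was at 6.44, 4.90, 5.83, 2.92 and 4.05 CPM in the CON samples (115, 39, 51, 28 and 39 reads) and at 1.78, 2.44, 1.84, 1.45 and 1.86 CPM in the MET samples (38, 25, 16, 13 and 18 reads). Its highest sample was CON 1+4, which was among the low CON samples for CDK1 and CCNB1. The median log2 fold change of the 39 genes of this list with a mean of at least 5 reads was −0.08, against −0.92 for the 37 mitosis genes, and the difference between the lists was not tested.

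Markers of blood-forming cells, which the fetal liver holds, varied strongly between the samples. The 14 erythroid genes summed to 22.2, 987, 419.8, 154 and 398 CPM in the CON samples and to 477, 67.3, 185, 78.7 and 153 CPM in the MET samples. Hemoglobin beta, HBB, was the most abundant, with 937 CPM in CON 2 and 6.19 CPM in CON 1+4. The mean sum was 396 ± 370.2 CPM in CON and 192 ± 167 CPM in MET (SD, n = 5 samples each). It was thus lower in MET, as the mitosis genes were, with a spread nearly as large as the mean. Most of it was HBB, with means of 354 CPM in CON and 168 CPM in MET. The other genes did not share 1 direction. Over 12 libraries 2 of the 4 tested erythroid genes were below 0 and 2 above (HBQ1 at 0.30 and ALAS2 at 0.16). Of the 7 with a mean of at least 5 reads, 3 were below 0 and 4 above. CON 2 had the highest sum, followed by MET 1+3 and CON 3. The transferrin receptor TFRC had a log2 fold change of −1.12 (edgeR FDR = 0.102). The erythroid transcription factors GATA1 and KLF1 were near 0 in all libraries, with 5 and 21 reads over the 12 libraries, 7 of the 14 genes had a mean under 5 reads, and 0 of the 4 tested erythroid genes were called by edgeR (1, TFRC, lower at unadjusted p at most 0.05, and 1 called by DESeq2 over 10 samples, of 3 with an adjusted p). The part of these cells in the mitosis genes was not tested.

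Of the markers of other cell types, 2 of 10 Kupffer cell and macrophage genes were called higher in MET, C1QB (0.39, edgeR FDR = 0.0855) and C1QC (0.41, 0.0571). In lower calls, there was 1 of 9 hepatocyte genes (APOB, −0.38, 0.0859), 1 of 9 stellate and fibroblast genes (LUM, −0.70, 0.0985) and 1 of 5 cholangiocyte genes (CFTR, −0.56, 0.0889). None of these calls held over the 10 samples by edgeR, while DESeq2 called 2 of 10 macrophage genes higher, 2 of 9 hepatocyte genes lower, and 0 of 8 stellate and 0 of 5 cholangiocyte genes, of those with an adjusted p. The backgrounds for lower and higher calls were 2.32% and 2.09% by edgeR over 12 libraries, and 2.98% and 2.74% by DESeq2 over 10 samples. All 10 macrophage genes were above 0 over 12 libraries (5 at unadjusted p at most 0.05), as were all 6 tested lymphocyte genes of the 10 listed (1 at unadjusted p at most 0.05), and 9 of 9 stellate and fibroblast genes, 7 of 9 hepatocyte genes and 4 of 5 cholangiocyte genes were below 0 (2, 2 and 1 lower at unadjusted p at most 0.05). Of the 9 lymphocyte genes with a mean of at least 5 reads, 7 were above 0 and 2 below. Over all genes 10.4% were lower and 10.2% higher at unadjusted p at most 0.05. The endothelial genes were divided, with 5 of 9 below 0, and 3 of 4 granulocyte and megakaryocyte genes were above 0. The macrophage genes, led by MARCO, summed to 1421, 1730, 1879, 1683 and 1745 CPM in the CON samples and to 1951, 2263, 1907, 1705 and 2149 CPM in the MET samples. For granulocytes and megakaryocytes, lymphocytes and endothelium, edgeR called 0 of 4, 0 of 6 and 0 of 9 tested genes (1, 1 and 1 at unadjusted p at most 0.05), and DESeq2 called 0 of the 3, 3 and 9 with an adjusted p over 10 samples. The part of cell composition in the mitosis genes was not tested.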

How the data were processed

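The authors aligned the reads to UMD 3.1.1 with STAR 2.5.3a and assigned them by strand to exons of RefSeq genes with featureCounts 1.5.2, and the deposited values are raw counts per gene, without normalization. Symbols came from a RefSeq gene table of a later assembly, which named 25105 of 30336 gene IDs. Genes that passed filterByExpr of edgeR at its defaults (minimum count 10, total 15) were compared with the quasi-likelihood test of edgeR 4.0.16 (R 4.3.3) on TMM-scaled counts with diet alone, with Benjamini-Hochberg adjustment over every gene in the fit (FDR at most 0.10). Genes below the filter were tested among those with CPM above 0.5 in at least 2 libraries. Library pairs with a chi-square per gene under 2 were summed for tests over 10 samples. Single genes were also compared by exact two-sided permutation of log2 CPM (prior count 2), unadjusted, where the smallest p is 0.00794.

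Values per sample are given for genes called over 12 libraries, the 5 with the most reads per kb, and CCNB2, PLK1, AURKA, TOP2A, MKI67 and CDC20. The members and lists were chosen with earlier results of these data known. The value of 1 marker gene is not reported here. Alternatives covered scaling, test (DESeq2 1.42.0, voom of limma 3.58.1), filter, gene length, blocks and each library left out. The tests were also run on simulated counts with known changes. Each simulated library was drawn independently, so the library pairs were not imitated and the simulation does not bear on them. Figures were drawn with Python 3.11.15.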

Additional observations from a re-analysis of the deposited data

Results flagged for a closer look

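In MET, the sample MET 1+3 lay far above the other 4 samples for CCNB1, at 1.36 CPM against 0.448 to 0.618 CPM, a gap to the nearest of 0.812 of the range of the diet. For KIF23 the sample MET 5 lay far above the others, at 42.5 CPM against 6.70 to 13.0 CPM, a gap of 0.824 of the range. Both shares are above the 95% limit of Dixon's test for 5 samples. The test was made in 32 groups of samples and flagged these 2. Chance gives about 1 in 20, so this number of flags is near what chance alone gives. No explanation was tested for either.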

How the results depend on the processing

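The summed level kept its direction and moved by less than the spread between samples in all 15 alternatives (1 of them, without KIF23, chosen after seeing the data), with ratios of MET over CON of 0.532 to 0.671 when 1 sample was left out. The lowest ratio of the 15 was 0.487, without the 3 genes with the most reads (NCAPD2, KIF23 and TPX2). The count of 5 called mitosis genes moved more. It was 16 with DESeq2, 15 with the likelihood-ratio test, 9 with DESeq2 on 10 samples, 2 with voom or with no filter, 1 with the gene length trend removed, and 0 with library size only, with library pairs summed, and with 1 library of each pair kept, which was chosen after seeing the data. Leaving out 1 library gave 0 to 6. Over all genes the count of 583 became 1314 with DESeq2, 914 with the likelihood-ratio test, 245 with the length trend removed, 238 with no filter, 107 with library size only, 0 with pairs summed or 1 library of each pair kept, and 26 to 565 with 1 library left out. Replicate numbers as a block left 0 mitosis genes and 6 genes in all, and same-numbered libraries did not deviate together (r of −0.19 to 0.15), so the numbers did not pair samples.

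Among genes below the filter the count of 1 (KIF2C) was 0 with no filter, 2 with a mean of at least 5 reads, and 0 with library pairs summed. With pairs summed, edgeR called 0 mitosis genes in all 14 alternatives (21 were at unadjusted p at most 0.05, and DESeq2 called 9). Of the named genes, 4 changed sign. PLK1 was at 0.01 with pairs summed by edgeR or DESeq2 (0.0110 and 0.0115), 0.0086 with library size only, 0.0028 with voom and −0.113 to 0.0605 with 1 library left out. KIF23 was at 0.0112 with pairs summed, 0.0375 with DESeq2 on these, and 0.0402 with 1 library of each pair kept. NCAPD2 was at 0.0034 with the length trend removed, and AURKA was at −0.396 to 0.10 with 1 library left out. The cause of these changes was not tested, and none of these 4 genes was called under any setting. Low counts limit KIF2C, CDC25C, KIF18A, ANLN, TTK and PTTG1.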
